A study of Mus musculus with 24 samples.

Results

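The genes described here encode the nuclear subunits of the respiratory chain and the ATP synthase, with the assembly factors that share their names. They were taken by symbol, as every gene of the deposited table that begins with Nduf, Uqcr, Atp5, or Cox4 to Cox8 followed by a, b or c, and 89 of the 14922 genes of the table matched. They comprised 40 subunits of complex I, 8 assembly factors of complex I (Ndufaf1 to Ndufaf8), 8 genes of complex III, 15 of complex IV and 18 of complex V. Ndufa4 and Ndufa4l2 were counted under complex IV, where the Ndufa4 protein is now placed. Cox4i1 and Cox4i2, the isoforms of complex IV subunit 4, have an i after the 4, so the rule missed them and their values are given only for comparison. The mitochondrially encoded subunits were not analysed here.

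Complex I takes electrons from NADH, complex III passes them from ubiquinol to cytochrome c, and complex IV hands them to oxygen. The proton gradient that these steps build drives complex V, the ATP synthase. Most subunits are encoded in the nucleus, and neural stem cells are known to rely largely on glycolysis and to raise oxidative phosphorylation as they differentiate into neurons.

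Poly(A) RNA was sequenced from primary cortical neural stem cells (NSCs), established from female mouse embryos at E14.5 and kept below 10 passages. The labels gave 4 groups. FVB_WT lines were wild type on the FVB/NJ background, and FVB_MD43 lines carried on that background the chemically induced MommeD43 allele of Smchd1, a chromatin protein needed for X inactivation. B6GFP_MD43 lines carried the same amino acid change, made by genome editing in a fusion of Smchd1 with GFP on the C57BL/6J background. The study describes the MommeD43 lines of both backgrounds as homozygous for this amino acid change. B6GFP_WT lines lacked that change: the labels call them wild type for Smchd1, and the study describes them as homozygous for the fusion. FVB and B6GFP lines therefore differed in strain and in the fusion at once, and these cannot be told apart here. The libraries came from 17 lines: 6 libraries of 5 lines in FVB_WT, 5 of 4 lines in FVB_MD43, 6 of 4 lines in B6GFP_WT and 5 of 4 lines in B6GFP_MD43. Where nothing ties a line to a separate embryo, p-values measure only the spread between these lines.

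Values are log2 CPM (read counts scaled to library size, on a log2 scale), as the authors deposited them after a batch correction. A fitted difference is the log2 difference of 2 groups from one limma model of all 22 libraries, and a gene is called where its p, adjusted by the Benjamini-Hochberg method over 14922 genes, is under 0.05. Depth relative to the deepest library, read from the steps between low values, was 0.526 to 0.893 in batch 1, which held both strains, 0.137 to 0.19 in batch 2 (FVB alone) and 0.435 to 1 in batch 3 (B6GFP alone). MommeD43 is an amino acid change, so its messenger level is no check of the labels. The fitted MD43 minus WT difference of Smchd1 was 0.05 (SE 0.0597) in FVB and -0.01 (SE 0.0776) in B6GFP, with adjusted p of 0.942 and 1. Its plain means over lines were 7.27 ± 0.118 log2 CPM in FVB_WT, 7.36 ± 0.0704 in FVB_MD43, 6.96 ± 0.277 in B6GFP_WT and 7.16 ± 0.193 in B6GFP_MD43, so in B6GFP the unweighted means and the weighted fit had opposite signs.

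Markers of the labelled cell type were present. All 10 neural stem cell markers were above 1 CPM in each group mean, and their summed level was 5793 to 6786 CPM over the lines of FVB_WT, 6203 to 6965 in FVB_MD43, 6068 to 8127 in B6GFP_WT and 5555 to 6835 in B6GFP_MD43. Between the strains, 3 of these 10 were higher and 6 lower in B6GFP in wild-type lines, and 3 and 5 in MommeD43 lines. Over all genes 17.9% were called higher and 23.2% lower in wild-type lines, and 14.7% and 19.6% in MommeD43 lines. Of the astrocyte markers all 6 were lower in B6GFP in both strain comparisons. Their summed level was 454 to 584 CPM in FVB_WT and 512 to 586 in FVB_MD43, against 279 to 339 in B6GFP_WT and 308 to 362 in B6GFP_MD43, where 3 of the 6 had group means under 1 CPM. Of the oligodendrocyte lineage markers 2 of 8 were higher and 2 lower in wild-type B6GFP lines, and 2 and 3 in MommeD43 lines. Of the neuron markers 1 of 8 was higher and 2 lower in wild-type lines, and 2 and 1 in MommeD43 lines. Only 1 of 6 microglia markers was in the table, at 0.581 to 2.44 CPM over all lines. Endothelial markers summed to at most 12.95 CPM. Fibroblast and meningeal markers summed to 3.996 to 5.67 CPM over FVB lines and 5.55 to 52.1 CPM over B6GFP lines. In both lists 5 genes had a mean under 1 CPM in every group. No marker of these lists was called between MommeD43 and wild type. The part of these marker differences in the strain results below was not tested. In such bulk RNA, fewer cells of a type and less RNA per cell cannot be told apart.

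The summed level of the 89 genes was 12878 ± 500.04 CPM (SD, n = 5) in FVB_WT and 12125 ± 594 CPM (n = 4) in B6GFP_WT. In the MommeD43 lines it was 12531 ± 277 CPM (n = 4) in FVB and 11625 ± 847 CPM (n = 4) in B6GFP. The ranges of the lines overlapped between neighbouring groups, with 12357 to 13626 CPM in FVB_WT and 11460 to 12906 CPM in B6GFP_WT.

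The largest part of this RNA came from complex V. Its 18 genes summed to 6417 ± 278 CPM in FVB_WT (n = 5), against the 3115 ± 112 CPM of the 40 complex I subunits in the same lines. Atp5b, which encodes the catalytic beta subunit, gave 18.9 ± 0.785% of the summed level in FVB_WT and 18.5 ± 0.52% in B6GFP_WT. Atp5a1, the alpha subunit of the same catalytic head, gave 12.03 ± 0.352% and 12.1 ± 1.03%. Per kilobase of merged exons, Atp5b had a median of 541 CPM per kb over the lines and Atp5a1 475, and the lines of the 2 genes overlapped (467 to 618 and 392 to 534). Of the 89 genes, 74 had a mean level of at least 4 log2 CPM, 86 were above 1 CPM in at least 4 libraries, and 3 had a mean under 1 CPM in every group.

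The tissue-restricted isoforms stood far below their ubiquitous partners on that length scale. Cox6a1 had a median of 259 CPM per kb against 0.262 for Cox6a2, the heart and skeletal muscle form of subunit 6a. Cox6b1 had 259 against 18.2 for Cox6b2, the form best known from testis. Cox4i1, outside the rule, had 229 against 0.582 for Cox4i2, the form associated with low oxygen and lung. Ndufa4 had 171 against 0.0855 for Ndufa4l2, its hypoxia-induced relative. Within the subunit 7a family the order was different. Cox7a2l, which helps to join complexes III and IV, had 128 CPM per kb, while Cox7a2, the usual ubiquitous form, was listed at only 3.45 and Cox7a1, the heart and muscle form, at 2.33. Their ranges over lines, 2.34 to 4.46 for Cox7a2 and 1.36 to 4.94 for Cox7a1, overlapped. Whether reads of Cox7a2 were shared with similar copies was not checked, so its low level is uncertain. Cox7b2, Cox8b and Cox8c were not analysed here. Reads of Ndufb4, Ndufs6, Ndufa11, Uqcrh and Atp5c1 can be shared with near-identical copies, several of which (Ndufb4b, Ndufb4c, Ndufs6b, Ndufa11b, Uqcrh-ps1 and Atp5c1-ps) are among the 89, so levels within these sets are uncertain.

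The ATP synthase subunit c, which forms the rotating ring, is made from 3 genes that encode the same mature protein. Atp5g3 had a median of 206 CPM per kb over the lines, Atp5g2 38.3 and Atp5g1 13.3. Their ranges, 180 to 256, 24.4 to 48 and 11.5 to 16.1, did not overlap, so the order Atp5g3, Atp5g2, Atp5g1 held for every line on this scale. The order depends on the exon lengths used, 2181, 1675 and 4912 bases. That of Atp5g1 is longer than its annotated interval (chr11:96072793-96075694), so the place of Atp5g1 below Atp5g2 is uncertain.

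**Figure D1:**
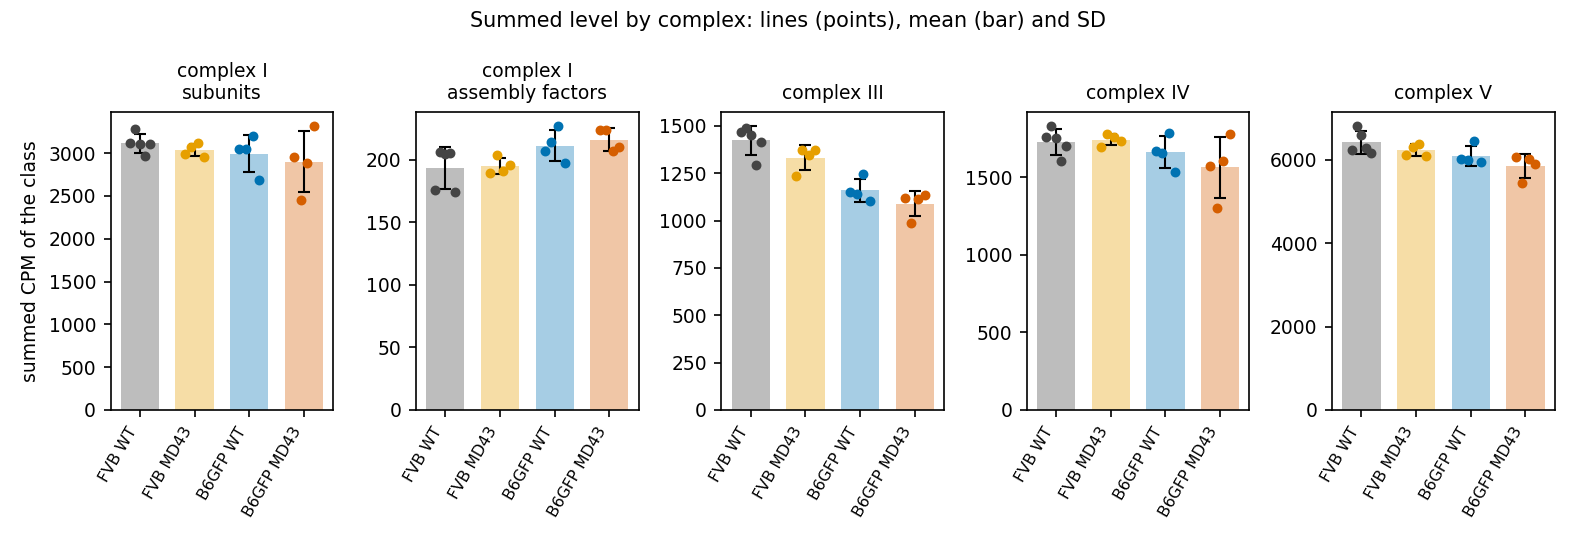
Summed level of each class (y axis, CPM) in the 4 groups. Points are lines, bars are means over 5 or 4 lines and whiskers are the SD over lines. Complex III has a mean of 1424 CPM in FVB_WT and 1161 in B6GFP_WT, with no line of one group reaching the other and Uqcrc2 alone at 395 and 225 CPM, while the other classes overlap between the strains in wild-type lines.

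What differs between the strains was asked first, in wild-type lines and again in MommeD43 lines, which share no library. Reads of both strains were aligned to the same reference genome, GRCm38.p6. The part of strain sequence differences in the read counts was not tested. In wild-type lines 29 of the 89 genes (32.6%) passed an adjusted p of 0.05, against a background of 41.1% of all genes tested. Of these, 6 were higher and 23 lower in B6GFP. In MommeD43 lines 26 passed (29.2%, background 34.4%), 5 higher and 21 lower. With all batches in the fit, the share of respiratory genes called was below that of all genes in both comparisons. Over all genes 17.9% were called higher and 23.2% lower in wild-type lines, and 14.7% and 19.6% in MommeD43 lines. At an unadjusted p under 0.05 there were 36 and 35 of the 89, against 48.7% and 43.9% of all genes. Within batch 1, the batch with both strains, 25 passed in wild-type lines (28.1%, background 34.1%) and 22 in MommeD43 lines (24.7%, background 24.1%), so the second share was not below that of all genes there. All 29 and 26 called genes kept their sign in batch 1. The other batches each held a single strain, and batch was a term of the fit. The strain differences of the main fit therefore rested mainly on batch 1 already, so this agreement of signs is no independent check.

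The differences were small and mostly downward. The median fitted difference over the 89 genes was -0.09 in wild-type lines, against -0.02 over all genes, and -0.09 in MommeD43 lines, against -0.03. In wild-type lines 66 of the 89 (74.2%) lay below 0, where 53.4% of all genes did, and in MommeD43 lines 68 (76.4%) did, where 54% of all genes did. Among the 23 genes called lower in wild-type lines the size had a median of 0.25 and reached 1.04, and 13 were under 0.25. Over all genes called lower the median size was 0.46. This balance depended on the scaling. With each library centred on its own median, which moved the all-gene median up by 0.07, 22 of the 89 genes were called in wild-type lines, 10 higher and 12 lower (24.7%, background 41.2%), and 22 in MommeD43 lines, 8 higher and 14 lower (24.7%, background 35.4%). Over all genes the centred calls turned to mostly higher, with 3608 higher and 2544 lower in wild-type lines and 3013 and 2265 in MommeD43 lines. The centred medians of the 89 genes were -0.02 and -0.03, against 0.04 over all genes in both comparisons, so the median of the 89 genes lay below that of all genes under either scaling. The count also rested on the quality weights. With equal weights 7 and 6 genes passed, at a background of 8.44% and 6.82%.

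By complex, the calls in wild-type lines were 2 higher and 12 lower of 40 complex I subunits, 3 higher and 1 lower of 8 complex I assembly factors, and 4 lower of 8 complex III genes. Complex IV had 2 lower of 15, and complex V had 1 higher and 4 lower of 18. In MommeD43 lines they were 3 higher and 11 lower, 2 higher and 1 lower, 2 lower, 5 lower and 2 lower, in the same order. Over all genes 17.9% were called higher and 23.2% lower in wild-type lines, and 14.7% and 19.6% in MommeD43 lines. After median centring the wild-type counts were 3 higher and 6 lower, 3 higher and 1 lower, 1 higher and 3 lower, 2 higher and 2 lower, and 1 higher and 0 lower in the same order. In MommeD43 lines they were 3 and 7, 3 and 1, 0 and 2, 1 and 3, and 1 and 1. Centring moved all genes up together, so these counts do not compare one complex with another.

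A set of 20 genes was called in both strain comparisons, each in the same direction. They were 69% of the wild-type calls and 76.9% of the MommeD43 calls (70.8% and 84.6% over all genes). Higher in B6GFP in both were Ndufaf1, Ndufaf2, Ndufb10 and Ndufc2. The 16 lower in both were the complex I genes Ndufs1, Ndufs7, Ndufv1, Ndufa9, Ndufa10, Ndufa11, Ndufa11b, Ndufa12 and Ndufb8, the assembly factor Ndufaf3, Uqcrc1 and Uqcrc2, Cox5a and Cox6b2, and Atp5d and Atp5h. The lines of B6GFP and FVB did not overlap for 10 of the 89 genes in the wild-type comparison (background 15.9%), 2 higher and 8 lower (backgrounds 6.5% and 9.38%). In the MommeD43 comparison they did not overlap for 17 (background 21.3%), 3 higher and 14 lower (backgrounds 9.85% and 11.5%), and for 7 in both.

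**Figure D2:**
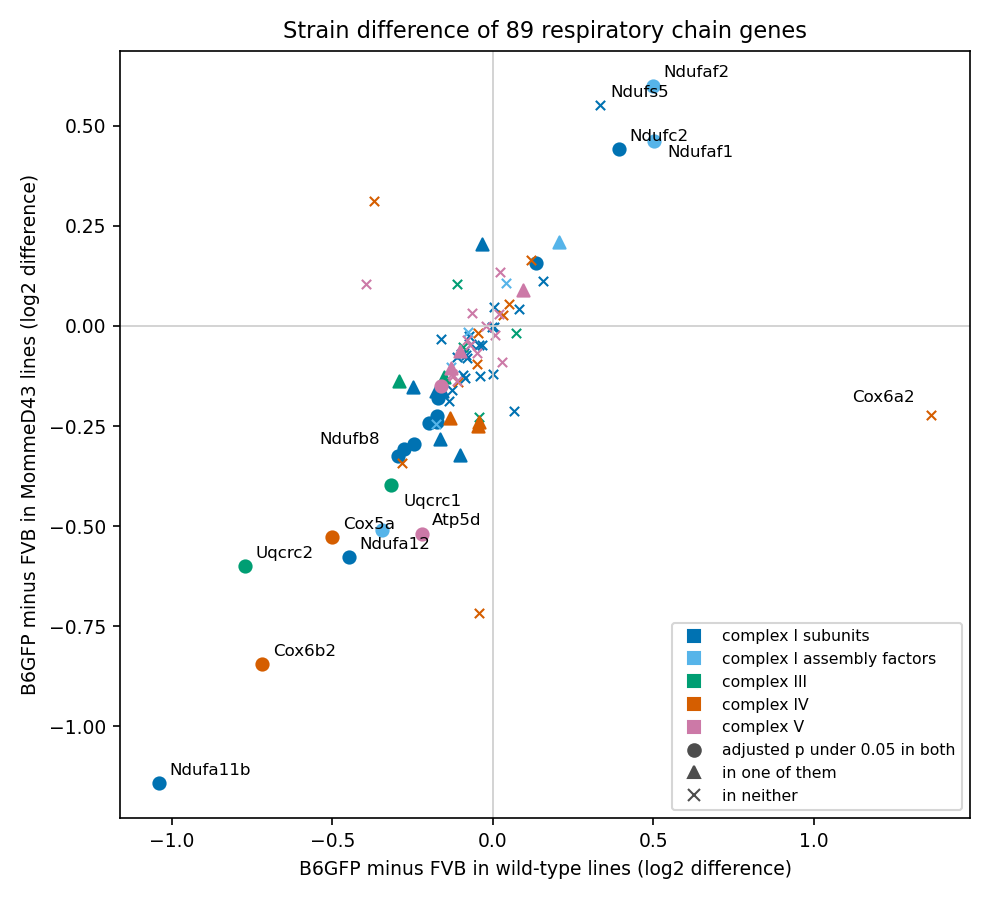
Fitted B6GFP minus FVB difference of the 89 genes in wild-type lines (x axis, log2) and in MommeD43 lines (y axis, log2), coloured by complex. Circles mark the 20 genes past an adjusted p of 0.05 in both comparisons, triangles those past it in one and crosses the rest, and 77 of 89 genes have the same sign in both.

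Promoter sequences are shown for genes called in both strain comparisons, to set those with and without the letters of nuclear respiratory factor 1 (NRF1) side by side. NRF1 is a transcription factor known to act on many respiratory genes. Of the 89 genes, 71 had a promoter in the RefSeq table of build GRCm38.p6. The core letters of its site, GCGCA and GCGC with any base between them, on either strand in the 250 bases before the start, were in 12 of these 71 (16.9%), in 8.92% of the 11104 genes of the table with a promoter and in 3.74% of all 32851 promoters. Letters of GABPA (CCGGAAGT) were in 2.82% of the 71 and 6.25% of table genes, and those of YY1 (AAGATGGC) in 1.41% and 2.28%. Of the 12 genes with NRF1 letters, 2 were called in wild-type lines, Ndufa11 and Atp5h (41.1% of all genes were), and 3 in MommeD43 lines, these and Cox6a1 (34.4% of all genes were). The sequences read 5′ to 3′ toward the gene, with capitals marking the NRF1 letters and, in Atp5h, those of GABPA as well. Ndufa11 lies on the plus strand (chr17:56717512-56717761), Atp5h on the minus strand (chr11:115419920-115420169), Ndufb8 on the minus strand (chr19:44555443-44555692), Cox6b2 on the minus strand (chr7:4753095-4753344) and Ndufc2 on the plus strand (chr7:97399753-97400002).
Ndufa11: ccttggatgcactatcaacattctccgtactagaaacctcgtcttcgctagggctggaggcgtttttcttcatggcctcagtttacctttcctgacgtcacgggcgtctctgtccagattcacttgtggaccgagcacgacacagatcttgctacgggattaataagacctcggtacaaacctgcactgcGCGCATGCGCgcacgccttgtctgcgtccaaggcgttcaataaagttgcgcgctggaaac
Atp5h: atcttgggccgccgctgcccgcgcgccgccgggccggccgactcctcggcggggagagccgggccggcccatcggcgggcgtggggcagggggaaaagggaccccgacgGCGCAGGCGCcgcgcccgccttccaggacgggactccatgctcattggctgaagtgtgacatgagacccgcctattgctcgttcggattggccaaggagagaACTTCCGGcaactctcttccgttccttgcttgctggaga
Ndufb8: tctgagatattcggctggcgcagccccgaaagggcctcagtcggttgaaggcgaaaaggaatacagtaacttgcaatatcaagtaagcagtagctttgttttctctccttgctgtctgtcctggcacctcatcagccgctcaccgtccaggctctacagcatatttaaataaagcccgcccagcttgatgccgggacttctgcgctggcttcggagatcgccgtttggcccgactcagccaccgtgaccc
Cox6b2: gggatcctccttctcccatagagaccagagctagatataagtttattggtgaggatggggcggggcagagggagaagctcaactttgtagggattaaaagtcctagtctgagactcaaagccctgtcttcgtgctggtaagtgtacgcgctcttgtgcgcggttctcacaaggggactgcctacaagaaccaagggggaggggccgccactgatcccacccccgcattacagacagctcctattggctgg
Ndufc2: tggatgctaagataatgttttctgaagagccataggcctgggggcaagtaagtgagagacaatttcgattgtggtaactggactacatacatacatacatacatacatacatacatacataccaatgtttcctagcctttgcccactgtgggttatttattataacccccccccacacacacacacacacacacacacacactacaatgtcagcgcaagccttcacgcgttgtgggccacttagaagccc
In Ndufa11 the NRF1 letters lie 60 to 51 bases before the start, and in Atp5h 141 to 132 bases before it, with the GABPA letters at 39 to 32. The windows of Ndufb8, Cox6b2 and Ndufc2 hold none of the searched letters, and their base composition ranges from 45.2% GC in Ndufc2 to 54.8% in Ndufb8 and Cox6b2. The windows with NRF1 letters have 53.2% GC in Ndufa11 and 69.6% in Atp5h.

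Of the 89 genes, Cox5a of complex IV had the smallest p in both strain comparisons. Cox5a (chromosome 9, gene ID 12858), which encodes a nuclear subunit on the matrix side of cytochrome c oxidase, was at 7.57, 7.82, 7.87, 7.59 and 7.72 log2 CPM in the FVB_WT lines and 7.30, 7.21, 7.30 and 7.44 in the B6GFP_WT lines. It was at 7.77, 7.85, 7.81 and 7.93 in FVB_MD43 and 7.32, 7.26, 7.32 and 7.17 in B6GFP_MD43. Every B6GFP line lay below every FVB line. The fitted difference was -0.50 (SE 0.0563, adjusted p = 5.33e-07) in wild-type lines, a change of -29.3%, and -0.53 (SE 0.0662, adjusted p = 3.48e-06) in MommeD43 lines. Cox5a passed in every alternative fit of both comparisons, with differences from -0.53 to -0.42 in the first and from -0.59 to -0.47 in the second.

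Cox6b2 differed in the same direction and more. Its lines were at 4.57, 4.83, 4.55, 4.46 and 4.30 log2 CPM in FVB_WT and at 3.96, 3.94, 3.61 and 4.33 in B6GFP_WT. They were at 4.47, 4.70, 4.45 and 4.36 in FVB_MD43 and at 3.73, 3.14, 3.88 and 3.3999 in B6GFP_MD43. The wild-type groups overlapped through B6GFP_WT replicate 4, and the MommeD43 groups did not overlap. The fitted differences were -0.72 (SE 0.115, adjusted p = 4.75e-05) and -0.84 (SE 0.135, adjusted p = 6.45e-05), and both passed in every alternative fit. Its ubiquitous partner Cox6b1 had a difference of -0.05 (SE 0.0452, adjusted p = 0.426) in wild-type lines.

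Cox5b, Cox8a and Cox6a1 were called in MommeD43 lines alone, at -0.25 (SE 0.0747), -0.24 (SE 0.0742) and -0.23 (SE 0.071). In wild-type lines their differences were -0.05, -0.04 and -0.13. The difference between these strain effects, tested as the interaction of strain and allele, was -0.20 for Cox5b (adjusted p = 1), so a difference between the comparisons was not shown. Cox6a1 lost its call without B6GFP_MD43 replicate 1, at -0.15 (adjusted p = 0.0569). Cox6a2 had the widest spread of the 89 genes, with a within-group SD of 1.58, and its wild-type difference of 1.37 (SE 0.564) had an adjusted p of 0.0578. Cox7a2l, whose protein is known to occur in a short form in some mouse strains, differed by 0.12 (SE 0.0604, adjusted p = 0.12) in wild-type lines.

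In complex III the transcripts of the core proteins Uqcrc1 and Uqcrc2 were lower in B6GFP. Uqcrc2 (chromosome 7, gene ID 67003) was at 8.90, 8.50, 8.65, 8.23 and 8.76 log2 CPM in FVB_WT and at 7.82, 7.83, 7.82 and 7.79 in B6GFP_WT. It was at 7.88, 8.47, 8.48 and 8.77 in FVB_MD43 and at 7.84, 7.68, 7.72 and 7.87 in B6GFP_MD43. The B6GFP lines lay close together, with an SD of 0.017 in B6GFP_WT and 0.0945 in B6GFP_MD43, while the FVB lines spread widely, with SDs of 0.26 and 0.371. FVB_MD43 replicate 1, at 7.88, stood next to the highest B6GFP_MD43 line at 7.87, and no lines of the strains overlapped within a genotype. The fitted differences were -0.77 (SE 0.128, adjusted p = 6.94e-05) in wild-type lines, a change of -41.4%, and -0.60 (SE 0.151, adjusted p = 0.00405) in MommeD43 lines. The wild-type difference passed in every alternative fit. The MommeD43 difference was -0.12 (adjusted p = 0.446) without FVB_MD43 replicate 2 and -0.45 (adjusted p = 0.18) in batch 1 alone.

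Uqcrc1, the partner of Uqcrc2 in the core, was steadier. Its lines were at 8.20, 8.50, 8.30, 8.17 and 8.28 log2 CPM in FVB_WT, 7.99, 7.98, 8.08 and 8.10 in B6GFP_WT, 8.32, 8.28, 8.30 and 8.17 in FVB_MD43, and 7.87, 7.77, 8.02 and 7.92 in B6GFP_MD43. No B6GFP line reached an FVB line in either comparison. The differences were -0.32 (SE 0.0532, adjusted p = 7.55e-05) and -0.40 (SE 0.0626, adjusted p = 5.2e-05). The first lost its call with equal weights, at -0.27 (adjusted p = 0.0771), and the second passed in every alternative fit.

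Uqcrb, a small subunit at the ubiquinone-binding part, and Uqcrfs1, the Rieske iron-sulfur protein that passes electrons to cytochrome c1, were called lower in wild-type lines, at -0.29 (SE 0.0679) and -0.15 (SE 0.0468). Uqcrfs1 lost its call without FVB_WT replicate 3 (-0.13, adjusted p = 0.0532) and without B6GFP_WT replicate 2 (-0.14, adjusted p = 0.0547). Cyc1, the cytochrome c1 of the same complex, has no Uqcr symbol and so lay outside the rule, and it was lower in both comparisons, at -0.22 (SE 0.0518, adjusted p = 0.0019) and -0.25 (SE 0.0609, adjusted p = 0.00306). The summed level of the 8 complex III genes was 1424 ± 77 CPM in FVB_WT (n = 5) and 1161 ± 60.7 CPM in B6GFP_WT (n = 4), and their ranges, 1295 to 1489 and 1106 to 1247, did not overlap. Most of the difference of these means came from Uqcrc2, at 395 ± 68.6 CPM in FVB_WT and 225 ± 2.64 CPM in B6GFP_WT. In MommeD43 lines the sum was 1332 ± 66.1 CPM and 1090 ± 67.2 CPM (n = 4 each), again without overlap, with Uqcrc2 at 346 ± 82.5 and 219.7 ± 14.4 CPM.

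**Figure D3:**
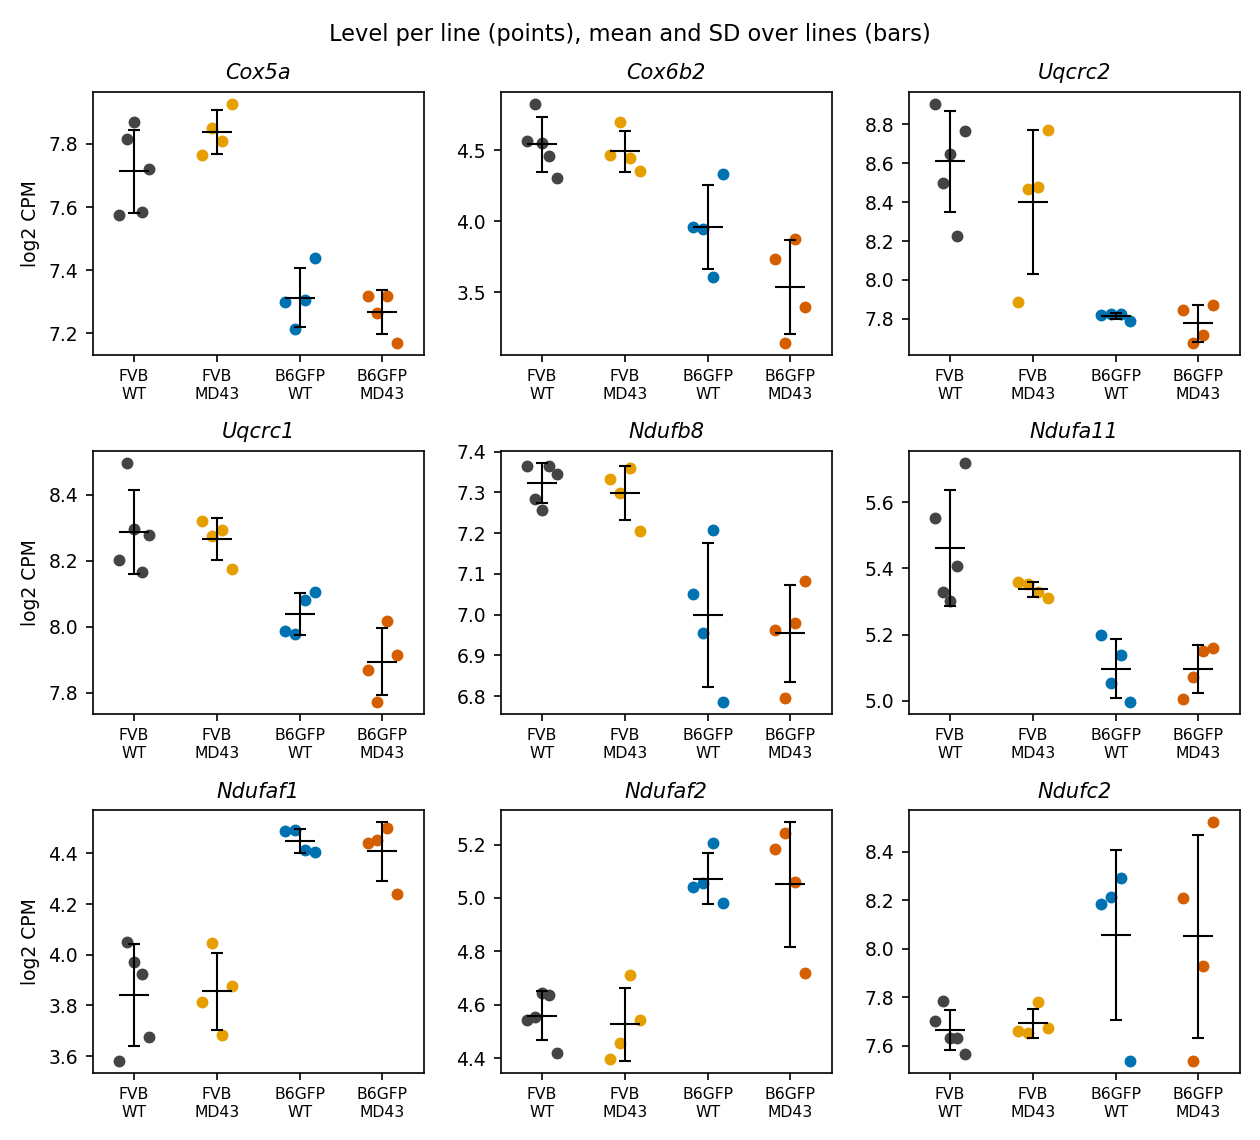
Level (y axis, log2 CPM) of 9 genes in the lines of the 4 groups, with the mean and SD over lines as bars. Cox5a, Uqcrc1 and Ndufa11 show every B6GFP line below every FVB line of the same genotype, Ndufaf1 and Ndufaf2 show the reverse, and Uqcrc2 shows 1 FVB_MD43 line at the B6GFP level.

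Of the 40 complex I subunits 14 (35%) were called in each comparison, against 41.1% and 34.4% of all genes. Most of the 40 are accessory subunits, which surround the catalytic core, so most calls fell among them. The core was not spared: Ndufs1, Ndufs7 and Ndufv1 were called lower in both comparisons and Ndufs3 in wild-type lines. Ndufb8 (chromosome 19, gene ID 67264), in the membrane arm, was at 7.37, 7.28, 7.26, 7.36 and 7.34 log2 CPM in FVB_WT and 7.05, 6.96, 7.21 and 6.79 in B6GFP_WT. It was at 7.33, 7.30, 7.36 and 7.21 in FVB_MD43 and 6.96, 6.79, 6.98 and 7.08 in B6GFP_MD43. No B6GFP line reached an FVB line of its genotype. The differences were -0.29 (SE 0.0439, adjusted p = 2.05e-05) and -0.33 (SE 0.0516, adjusted p = 5.68e-05), and both passed in every alternative fit.

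Ndufa11, a membrane-arm subunit at the join to complex III in supercomplexes, was at 5.55, 5.33, 5.30, 5.41 and 5.72 log2 CPM in FVB_WT and 5.20, 5.05, 5.14 and 4.997 in B6GFP_WT. It was at 5.36, 5.35, 5.33 and 5.31 in FVB_MD43 and 5.01, 5.07, 5.15 and 5.16 in B6GFP_MD43. The strains were again apart in both genotypes. The differences were -0.28 (SE 0.0581, adjusted p = 0.000726) and -0.31 (SE 0.0684, adjusted p = 0.00154), and the second lost its call with equal weights (-0.25, adjusted p = 0.168). The related pseudogene Ndufa11b, with a mean under 1 CPM in every group, differed by -1.04 (SE 0.308) and -1.14 (SE 0.362), the first lost without B6GFP_WT replicate 3 (-0.83, adjusted p = 0.0537) and the second without B6GFP_MD43 replicate 1 (-0.37, adjusted p = 0.292), FVB_MD43 replicate 2 (-0.45, adjusted p = 0.244) or B6GFP_WT replicate 2 (-0.85, adjusted p = 0.0646).

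Among the catalytic core subunits, Ndufv1, which binds NADH, differed by -0.17 (SE 0.0519, adjusted p = 0.0112) in wild-type lines and -0.22 (SE 0.061, adjusted p = 0.00715) in MommeD43 lines. Ndufs1, the largest iron-sulfur subunit of the electron path, differed by -0.17 (SE 0.0484, adjusted p = 0.00794) and -0.18 (SE 0.057, adjusted p = 0.0185). These calls were lost without single lines. Ndufv1 was at -0.13 (adjusted p = 0.106) in wild-type lines without B6GFP_WT replicate 2. Ndufs1 was at -0.13 (adjusted p = 0.0505) in wild-type lines without FVB_WT replicate 3, and at -0.09 (adjusted p = 0.155) in MommeD43 lines without FVB_MD43 replicate 2. Ndufs7, the core subunit with the last iron-sulfur cluster before ubiquinone, differed by -0.25 (SE 0.08) and -0.30 (SE 0.0941). In wild-type lines it lost its call without FVB_WT replicate 2 (-0.18, adjusted p = 0.172) and without B6GFP_WT replicate 2 (-0.20, adjusted p = 0.128). Ndufs3, a further core subunit, was called lower in wild-type lines. Its call was lost without B6GFP_WT replicate 2 (-0.14, adjusted p = 0.126) and without FVB_WT replicate 2 (-0.13, adjusted p = 0.0595).

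Ndufa9 and Ndufa10, accessory subunits of the arms, were lower at -0.20 (SE 0.0394) and -0.17 (SE 0.0492) in wild-type lines and -0.24 (SE 0.0463) and -0.24 (SE 0.0579) in MommeD43 lines. Both kept their calls whichever line was left out, and with equal weights neither passed in either comparison. Ndufc2, a small membrane-arm subunit, ran the other way. It was at 7.70, 7.78, 7.63, 7.63 and 7.57 log2 CPM in FVB_WT and 8.19, 8.21, 8.29 and 7.54 in B6GFP_WT, and at 7.66, 7.65, 7.78 and 7.67 in FVB_MD43 and 8.21, 7.54, 7.93 and 8.52 in B6GFP_MD43. In each B6GFP group 1 line lay below every FVB line and the other 3 lay above. The differences were 0.39 (SE 0.0775, adjusted p = 0.000374) and 0.44 (SE 0.0911, adjusted p = 0.000834), and with equal weights the adjusted p were 0.236 and 0.468. Ndufb10 was higher by 0.13 (SE 0.0441) and 0.16 (SE 0.0519). It lost its call in both comparisons without B6GFP_WT replicate 2 (0.11, adjusted p = 0.154, and 0.12, adjusted p = 0.0955), in wild-type lines without FVB_WT replicate 3 (0.13, adjusted p = 0.0517), and in MommeD43 lines without FVB_MD43 replicate 1 (0.11, adjusted p = 0.101), B6GFP_MD43 replicate 1 (0.10, adjusted p = 0.0953) or B6GFP_MD43 replicate 4 (0.15, adjusted p = 0.0552). Ndufb3 was called higher in MommeD43 lines alone, at 0.20 (adjusted p = 0.044). It lost that call in 9 of the 17 fits with a line left out, at 0.15 to 0.20, namely without FVB_WT replicate 1, 2 or 4, FVB_MD43 replicate 1 or 5, B6GFP_WT replicate 1 or 2, or B6GFP_MD43 replicate 1 or 4.

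In the main fit the complex I assembly factors with an Ndufaf symbol were the only class with more genes called higher than lower. The 9 complex I assembly factors without that symbol gave 0 higher and 4 lower in wild-type lines, and 1 and 3 in MommeD43 lines. After median centring complex V also had more higher than lower in wild-type lines (1 and 0). Ndufaf1 (chromosome 2, gene ID 69702), a chaperone of the membrane arm early in assembly, was at 3.58, 4.05, 3.97, 3.93 and 3.67 log2 CPM in FVB_WT and 4.49, 4.49, 4.41 and 4.41 in B6GFP_WT. It was at 3.81, 4.05, 3.68 and 3.88 in FVB_MD43 and 4.44, 4.45, 4.50 and 4.24 in B6GFP_MD43. Every B6GFP line was above every FVB line. The differences were 0.50 (SE 0.0806, adjusted p = 4.62e-05), a change of 41.8%, and 0.46 (SE 0.0948, adjusted p = 0.000772), and both passed in every alternative fit.

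Ndufaf2 (chromosome 13, gene ID 75597), which binds a late intermediate of complex I, was at 4.54, 4.55, 4.64, 4.64 and 4.42 log2 CPM in FVB_WT and 5.04, 5.06, 5.21 and 4.98 in B6GFP_WT. It was at 4.40, 4.46, 4.71 and 4.54 in FVB_MD43 and 5.18, 5.24, 5.06 and 4.72 in B6GFP_MD43. The strains did not overlap in either genotype, with 4.71 and 4.72 the nearest values in MommeD43 lines. The differences were 0.50 (SE 0.078, adjusted p = 3.63e-05) and 0.60 (SE 0.0917, adjusted p = 3.74e-05), and the second missed the threshold with equal weights (0.51, adjusted p = 0.0562). Ndufa12, the structural relative of Ndufaf2 that takes its place in the finished complex, moved the opposite way, by -0.45 (SE 0.136, adjusted p = 0.0117) and -0.58 (SE 0.16, adjusted p = 0.00793). Without B6GFP_WT replicate 2 the first of these was -0.44 (adjusted p = 0.0578). Ndufaf3, an early factor, was lower by -0.34 (SE 0.105) and -0.51 (SE 0.124), the first lost without FVB_WT replicate 2 (-0.20, adjusted p = 0.163).

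In complex V the changes were slight. Atp5d, the delta subunit of the central stalk, differed by -0.22 (SE 0.0836, adjusted p = 0.0386) in wild-type lines, where leaving out B6GFP_WT replicate 2 gave -0.12 (adjusted p = 0.338) and leaving out FVB_WT replicate 2 gave -0.18 (adjusted p = 0.178). The call was also lost without FVB_WT replicate 4, FVB_MD43 replicate 5 or B6GFP_MD43 replicate 4, with adjusted p from 0.0505 to 0.0573. In MommeD43 lines it differed by -0.52 (SE 0.0983, adjusted p = 0.000372), with 5.84, 5.59, 5.53 and 5.55 log2 CPM in FVB_MD43 and 5.04, 5.02, 5.32 and 5.31 in B6GFP_MD43, which did not overlap. Atp5h, subunit d of the peripheral stalk, differed by -0.16 (SE 0.0413, adjusted p = 0.00397) and -0.15 (SE 0.0485, adjusted p = 0.0214), the second lost without FVB_MD43 replicate 2 (-0.08, adjusted p = 0.153). The catalytic subunits differed little. Atp5b was at 11.25 ± 0.0768 log2 CPM in FVB_WT (n = 5) and 11.13 ± 0.0362 in B6GFP_WT (n = 4), a fitted difference of -0.13 (SE 0.0489, adjusted p = 0.037) that passed in 9 of the 17 fits with a line left out. It was lost without B6GFP_WT replicate 1, 2 or 3, FVB_WT replicate 2, 3 or 4, or FVB_MD43 replicate 2 or 5, with adjusted p from 0.0505 to 0.111. Atp5o, the subunit that joins the peripheral stalk to the catalytic head, was higher by 0.09 (SE 0.0364, adjusted p = 0.0422) in wild-type lines, a call that 10 of the 17 fits lost, at 0.08 to 0.11. Those fits left out FVB_WT replicate 2 or 4, any FVB_MD43 line but replicate 5, B6GFP_WT replicate 1, 2 or 3, or B6GFP_MD43 replicate 1 or 4. Atp5a1 differed by -0.13 (SE 0.0518, adjusted p = 0.0573). Cox4i1, the complex IV subunit outside the rule, differed by -0.08 (SE 0.0531, adjusted p = 0.263) in wild-type lines.

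Other genes of the pathway, from lists of complex II, cytochrome c and assembly factors, were read the same way. The background over all genes was 17.9% higher and 23.2% lower in wild-type lines, and 14.7% and 19.6% in MommeD43 lines. The lists are short, and whether their counts differ from these shares was not tested. In wild-type lines 3 of 4 complex II subunits were lower, led by Sdhc at -0.37 (SE 0.0562, adjusted p = 2.87e-05), and 2 of 4 were lower in MommeD43 lines. Of 9 complex I assembly factors without the Nduf prefix 4 were lower in wild-type lines, and 1 was higher and 3 lower in MommeD43 lines. Acad9, which works with Ndufaf1 in the same assembly complex, was at 6.41 ± 0.0635 log2 CPM in FVB_WT (n = 5) and 5.80 ± 0.151 in B6GFP_WT (n = 4), a fitted difference of -0.57 (SE 0.0525, adjusted p = 3.19e-08), and differed by -0.64 (SE 0.0618, adjusted p = 9.28e-08) in MommeD43 lines. Ndufaf1 and Acad9 thus differed between the strains in opposite directions.

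Assembly factors of complexes III and IV included genes called in both strain comparisons. Lyrm7, the chaperone that keeps the Rieske protein Uqcrfs1 stable before its insertion, was at 1.16 ± 0.226 log2 CPM in FVB_WT (n = 5) and 2.64 ± 0.209 in B6GFP_WT (n = 4). It was higher by 1.45 (SE 0.122, adjusted p = 8.4e-09) in wild-type lines and by 1.79 (SE 0.144, adjusted p = 6.46e-09) in MommeD43 lines, while its client Uqcrfs1 differed by -0.15 and -0.13. Cox18, an insertase for complex IV, was lower by -0.93 (SE 0.0805, adjusted p = 1.33e-08) and -0.998 (SE 0.0947, adjusted p = 7.89e-08). Acad9, Lyrm7 and Cox18 passed in all 28 alternatives of each comparison. Of 18 complex IV assembly factors 0 were higher and 9 lower in wild-type lines, and 0 and 4 in MommeD43 lines. The background over all genes was 17.9% higher and 23.2% lower in wild-type lines, and 14.7% and 19.6% in MommeD43 lines. Of 6 complex III factors 2 were higher and 2 lower in both, and of 4 complex II factors 3 and 2 were lower. Of 4 ATP synthase factors 2 were lower in wild-type lines, and 1 was higher and 2 lower in MommeD43 lines. Cytochrome c and c1 gave 1 lower of 2 in both. After median centring the wild-type counts of lower genes were 5 for complex IV factors, 2 for the complex I factors, 1 for complex II subunits and 1 for complex II factors. No gene of these lists was called between MommeD43 and wild type.

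Of 11 transcriptional regulators of respiratory genes 2 were higher and 3 lower in wild-type lines, and 2 higher and 1 lower in MommeD43 lines. Over all genes 41.1% and 34.4% were called in these comparisons. Nrf1 itself was higher in B6GFP wild-type lines by 0.20 (SE 0.0469, adjusted p = 0.00202), which passed in 16 of the 17 fits with a line left out. Ppargc1b, a coactivator of mitochondrial genes, differed by -0.45 (SE 0.115, adjusted p = 0.00386) in wild-type lines, which passed in all 17 of these fits.

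The effect of the MommeD43 allele was asked next. By limma 0 of the 89 genes passed in FVB, 0 in B6GFP, 0 averaged over the strains and 0 in the difference between the strains. The background was 0.0737% of all genes in FVB (0.0201% higher and 0.0536% lower), 0% in B6GFP, 0.0335% for the average (0.0134% higher and 0.0201% lower) and 0% for the difference. At an unadjusted p under 0.05 there were 4 of 89 in FVB, 2 in B6GFP, 2 for the average and 4 for the difference, against 6.86%, 2.14%, 4.62% and 3.08% of all genes. The lines of MommeD43 and wild type did not overlap for 1 of 89 genes in FVB (background 1.05%, with 0.469% higher and 0.576% lower) and for 0 in B6GFP (background 1.23%, with 0.757% higher and 0.469% lower). The 1 gene was Ndufa3, an accessory subunit of complex I, at 5.34, 5.40, 5.21, 5.34 and 5.24 log2 CPM in FVB_WT and 5.19, 5.21, 5.05 and 5.03 in FVB_MD43. Its fitted difference, which weights the libraries by their quality, was only -0.03 (SE 0.0683).

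The fitted differences were mostly just below 0. In FVB the median was -0.02 over the 89 genes and 0.01 over all genes, and 59 of the 89 (66.3%) lay below 0 against 42.8% of all genes. In B6GFP the median was -0.03 against 0.01, and 68 (76.4%) lay below 0 against 44.6%. Averaged over the strains it was -0.03 against 0.01, with 74 (83.1%) below 0 against 41.9%, and all 8 complex III genes were among them. In both strains at once 45 of the 89 lay below 0, against 20.1% of all genes, and 7 lay above. The difference between the strains lay below 0 for 49 of the 89, against 51.6% of all genes. These counts moved with single lines. In FVB 47 of 89 were below 0 without FVB_WT replicate 2 and 48 without FVB_MD43 replicate 1, with the median at -0.01 in both fits. In B6GFP the count ran from 57 without B6GFP_MD43 replicate 3 to 73 without FVB_MD43 replicate 2. For the average it ran from 63 without FVB_WT replicate 2 to 82 without FVB_WT replicate 4.

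No change was detected in the core subunits. Averaged over the strains, MD43 minus WT was -0.02 for Ndufs1 (95% interval -0.10 to 0.05), -0.02 for Ndufv1 (-0.10 to 0.05), -0.05 for Uqcrc1 (-0.13 to 0.03), -0.05 for Uqcrfs1 (-0.12 to 0.02), 0.02 for Cox5a (-0.06 to 0.11), -0.03 for Atp5a1 (-0.11 to 0.05) and -0.03 for Atp5b (-0.11 to 0.04). In percent, the interval for Atp5b ran from -7.1 to 2.89 and that for Cox5a from -4.26 to 7.67. Changes within these intervals could not be told from 0.

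The genes with the smallest p were named for each allele comparison, though none passed. Ndufb3, a small membrane-arm subunit, was at 5.73, 5.85, 5.91, 5.72 and 5.78 log2 CPM in FVB_WT and 5.55, 5.58, 5.85 and 5.54 in FVB_MD43, with 3 of the 4 mutant lines below every control. Its difference in FVB was -0.19 (SE 0.0574, adjusted p = 0.31), and in B6GFP it was 0.05 (SE 0.0746, adjusted p = 1). The difference of these effects was 0.24 (SE 0.0941, adjusted p = 1). In FVB, Cox7a1 differed by -0.59 (SE 0.22, adjusted p = 0.524) and Atp5c1, the gamma subunit that turns in the ATP synthase, by -0.08 (SE 0.0366, adjusted p = 0.635).

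In B6GFP the smallest p belonged to the pseudogene Atp5c1-ps, at 0.52 (SE 0.195), Ndufa6, at -0.22 (SE 0.0965), and Uqcr10, at -0.11 (SE 0.0576), with an adjusted p of 1 for each. For the average they were Atp5c1-ps (0.27, SE 0.123), Atp5c1 (-0.06, SE 0.03) and Ndufa13 (-0.07, SE 0.0375), each with an adjusted p of 0.999. For the difference of the allele's effect between the strains the smallest p beside Ndufb3 were those of Atp5d, at -0.30 (SE 0.121), and Cox5b, at -0.20 (SE 0.0919), neither of which passed.

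**Figure D4:**
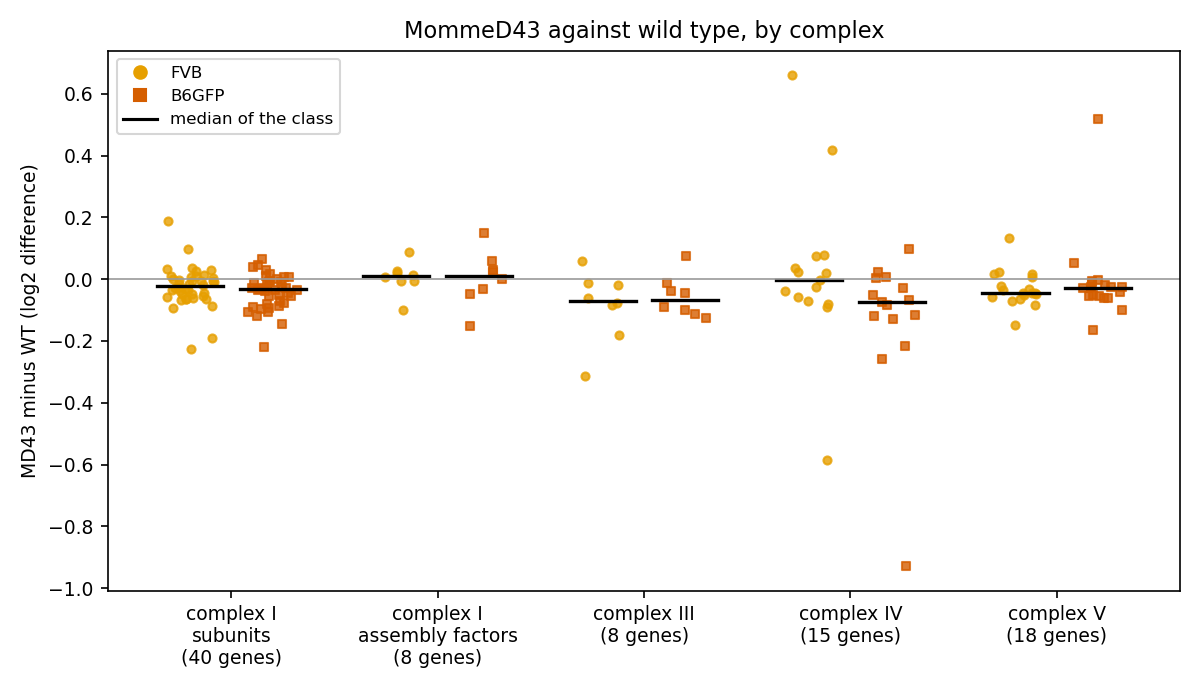
Fitted MD43 minus WT difference (y axis, log2) of the 89 genes by class, in FVB (circles) and in B6GFP (squares), with black lines at class medians. No gene passes the test, the complex III medians are -0.07 in both strains, and the widest points belong to weakly expressed genes of complex IV such as Cox6a2 (0.66 in FVB and -0.93 in B6GFP).

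These zero counts depended on single lines in FVB. Without FVB_MD43 replicate 2, 12 of the 89 genes passed in FVB (13.5%, background 6.54%), 11 lower and 1 higher, among 976 genes in all. They were led by Uqcrc2 at -0.64 (SE 0.0849, adjusted p = 0.000534), Atp5c1 at -0.16 (adjusted p = 0.00804) and Ndufb3 at -0.24 (adjusted p = 0.00945), with Atp5d at 0.30 (adjusted p = 0.0147) the one higher. Without B6GFP_MD43 replicate 3, Atp5c1-ps passed in B6GFP at 0.68 (adjusted p = 0.0438). The 2 columns left out because they equal the mean of their group mates also matter. With them, 2 genes passed in FVB (Ndufb3 at -0.21 and Cox7a1 at -0.61), or 2.25% against 3.42% of all genes, and 7 for the average, or 7.87% against 6.77%.

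Genes on the X chromosome and on chromosome 17, where Smchd1 lies, were followed in each group. The 3 X-linked genes were Ndufa1, Ndufb11 and Cox7b, small subunits of complexes I and IV. Ndufb11 was at 6.67 ± 0.104 log2 CPM in FVB_WT, 6.68 ± 0.0469 in FVB_MD43, 6.63 ± 0.21 in B6GFP_WT and 6.61 ± 0.293 in B6GFP_MD43. Cox7b was at 7.28 ± 0.195, 7.32 ± 0.156, 7.27 ± 0.225 and 7.23 ± 0.227 in the same order. The groups of both genes overlapped throughout. Ndufa1 was at 5.45 ± 0.0996, 5.40 ± 0.0781, 5.26 ± 0.108 and 5.15 ± 0.133 in that order, and it was lower in wild-type B6GFP lines by -0.25 (SE 0.0608, adjusted p = 0.0027), with 5.27 the lowest FVB_WT line and 5.32 the highest B6GFP_WT line. Of the 7 genes on chromosome 17, Ndufa11 and Ndufb10 were described above, and Ndufaf7, a methyltransferase for complex I assembly, was higher in wild-type B6GFP lines by 0.21 (SE 0.0744, adjusted p = 0.0313). That call was lost without FVB_WT replicate 2 (0.21, adjusted p = 0.106), FVB_WT replicate 3 (0.21, adjusted p = 0.0626), B6GFP_WT replicate 2 (0.21, adjusted p = 0.0887) or B6GFP_WT replicate 3 (0.19, adjusted p = 0.0596). Ndufa7, Ndufv2, Ndufv3 and Cox7a2l were not called between the strains in wild-type lines, at 0.16, -0.10, -0.07 and 0.12.

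In some lines most of the 89 genes lay on one side of their group mean. Over the 74 genes with a mean of at least 4 log2 CPM, the median deviation from the group mean was -0.16 in B6GFP_WT replicate 4, where 59 lay below their group mean and 15 above, and -0.18 in B6GFP_MD43 replicate 2, where 67 lay below and 7 above. It was 0.11 in B6GFP_WT replicate 3, with 64 above, and 0.11 in B6GFP_MD43 replicate 4, with 57 above. B6GFP_WT replicate 4 and B6GFP_MD43 replicate 2 each rest on 1 library of batch 3, and these have the lowest quality weights of all (0.101 and 0.158). The part of library quality in their deviations was not tested. Over all genes the median deviations of these 4 lines were between -0.04 and 0.04, a quantity that scaling to library size itself keeps near 0. In FVB the medians lay between -0.06 (FVB_WT replicate 4) and 0.08 (FVB_WT replicate 2). The spread of single genes was not unusual, with a median within-group SD of 0.142 over these 74 genes and 0.157 over all 8521 genes at that level. 

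**Figure D5:**
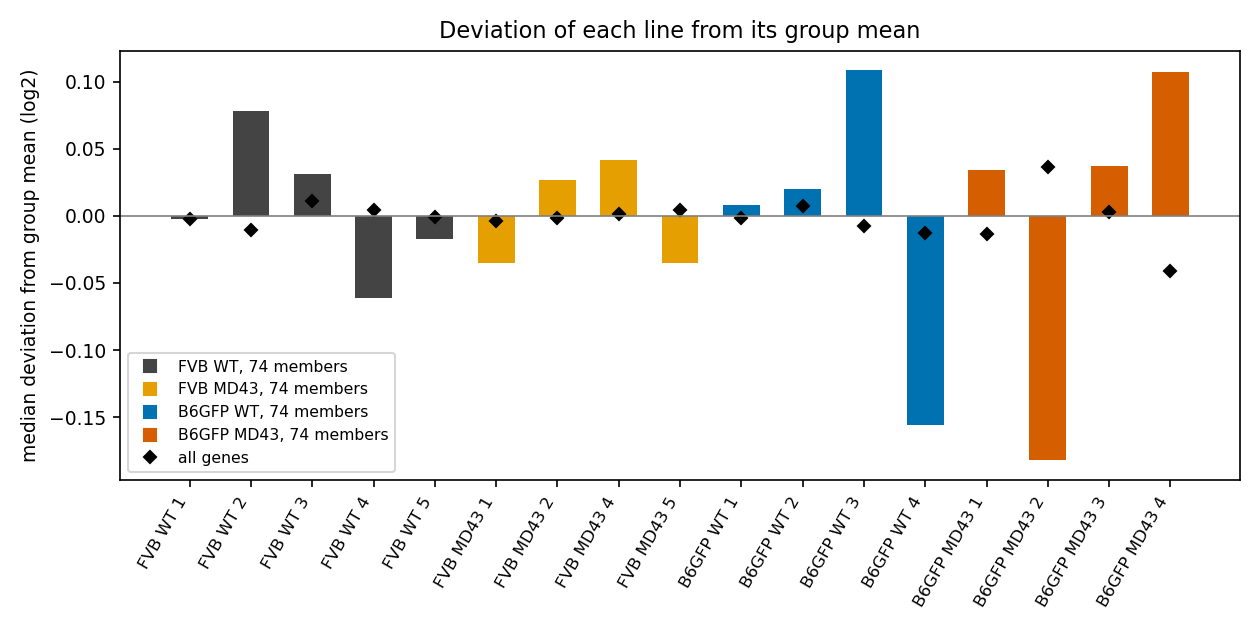
Median deviation of 74 respiratory genes from their group mean (bars, log2, y axis) in each of the 17 lines, with the median over all genes as diamonds. B6GFP_WT replicate 4 and B6GFP_MD43 replicate 2 lie lowest at -0.16 and -0.18, while the diamonds stay between -0.04 and 0.04.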

How the data were processed

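The deposited values were log2 CPM for 14922 genes in 24 columns. The authors trimmed reads with Trim Galore 0.4.4, aligned them with HISAT2 2.0.5 to GRCm38.p6 (versions from the submitters' processing notes), and corrected the log2 values for batch with limma 3.40.6 before deposit. The unweighted model with group and batch left a largest batch coefficient of 7.9e-09. In the main model, with quality weights, the largest batch coefficient of any gene was 2.16 log2, so the batch term was not empty there. Of the columns, 2 equalled the mean of their group mates within 8e-09 and were left out, namely the batch 1 columns of B6GFP_MD43 replicate 2 and FVB_MD43 replicate 3. Low values were whole multiples of 1 step in 100% of 3143 cases (tolerance 0.05 of a step), which gave relative depth. Absolute depth is unknown, so no counting intervals are given.

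The 22 libraries of 17 lines were modelled in limma 3.58.1 (R 4.3.3) by group and batch, using array quality weights (0.101 to 4.89), libraries of a line as a correlated block (correlation 0.0827) and a mean-variance trend. The planned main test was kept, and it was checked on simulated strain differences. The simulated noise was independent, with the same SD of a gene in all libraries and no batch or line effect. The check therefore could not test the quality weights, the batch term or the line block. P-values were adjusted over all genes with a threshold of 0.05. Means and SDs are over lines. Sums of CPM and CPM per kb of merged exons were computed with Python 3.11.15 from values brought back to the linear scale, for the 85 genes with an exon length in GENCODE vM21. Figures used matplotlib 3.10.9.

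The genes, the pathway and marker lists and the naming rule were chosen with earlier results of these data known. Named by rule were, per class and direction, the 3 genes with the smallest p among those called in each strain comparison, the 3 with the smallest p in each allele comparison, core subunits, isoform sets and genes on X and 17, and up to 2 genes per pathway list. Ndufa3, Ndufa10, Ndufa11b, Ndufa12, Ndufs3, Ndufs7, the subunit c genes and the genes listed as called in both comparisons were added after their values were seen. Counting rules for reads shared by near-identical copies were not given in the sources used here. Alternatives were equal weights, no trend, all 24 columns, line means, independent libraries, a replicate block, a block of lines sharing a leading line number (added after seeing the data), median centring, a filter on low values, a pseudocount of 1, single batches and each line left out.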

Additional observations from a re-analysis of the deposited data

Results flagged for a closer look

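Among 212 groups of 4 or 5 lines tested by Dixon's criterion for 1 line apart from the rest, 20 held such a line, where chance gives about 1 in 20 groups. The levels are in log2 CPM, with the range of the other lines of the group in parentheses.

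In complex I, Ndufc2 was at 7.78 in FVB_MD43 replicate 4 (7.65 to 7.67) and at 7.54 in B6GFP_WT replicate 4 (8.19 to 8.29). Ndufb3 was at 5.85 in FVB_MD43 replicate 4 (5.54 to 5.58) and at 5.45 in B6GFP_WT replicate 4 (5.85 to 5.86). The other gene low in B6GFP_WT replicate 4 was Ndufa7 at 5.78 (6.17 to 6.25), while Ndufs1 stood high there at 7.54 (7.44 to 7.44). Ndufb10 was at 6.07 in FVB_MD43 replicate 2 (5.97 to 5.98), and the X-linked Ndufb11 was at 6.75 in FVB_MD43 replicate 4 (6.65 to 6.66). Ndufa1, also X-linked, was at 5.27 in FVB_WT replicate 4 (5.45 to 5.51), at 5.51 in FVB_MD43 replicate 4 (5.35 to 5.37) and at 5.10 in B6GFP_WT replicate 2 (5.30 to 5.32).

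In complex III, the Rieske protein gene Uqcrfs1 was at 7.67 in FVB_MD43 replicate 5 (7.75 to 7.76), and the summed level of the complex was 989.5 CPM in B6GFP_MD43 replicate 2 (1114 to 1134 CPM). In complex IV, Cox6a1 was at 7.40 in FVB_WT replicate 3 (7.61 to 7.64) and at 7.30 in B6GFP_WT replicate 2 (7.503 to 7.54). Cox7a2l was at 7.33 in FVB_WT replicate 5 (7.54 to 7.58), and Cox4i1 was at 8.20 in FVB_WT replicate 4 (8.48 to 8.53). The weakly expressed Cox6a2 was at -1.13 in FVB_WT replicate 1 (-3.29 to -3.06), and Ndufa4l2 was at -1.16 in FVB_WT replicate 2 (-3.92 to -3.42). In complex V, the summed level was 6448 CPM in B6GFP_WT replicate 3 (5942 to 6010 CPM).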

How the results depend on the processing

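With equal weights the genes called were 7 between the strains in wild-type lines and 6 in MommeD43 lines, against 29 and 26, at a background of 8.44% and 6.82% of all genes. With all 24 columns they were 83 between the strains in MommeD43 lines (93.3%, background 93.8%), 2 for the allele in FVB (2.25%, background 3.42%) and 7 averaged over the strains (7.87%, background 6.77%). With a line left out the ranges were 18 (without B6GFP_WT replicate 2, background 30.5%) to 30 (without FVB_WT replicate 1, background 42.9%) in wild-type lines and 25 to 42 (without B6GFP_MD43 replicate 3, background 54.8%) in MommeD43 lines. For the allele they were 0 to 12 in FVB, the 12 without FVB_MD43 replicate 2 (background 6.54%), and in B6GFP they were 0 to 1, the 1 without B6GFP_MD43 replicate 3 (background 0.932%). In batch 3 alone Atp5c1-ps differed by -0.11 in B6GFP, the opposite sign. Of the single-gene results, 87 kept their sign but lost their call in an alternative (21 of them with equal weights), 6 gained one and 1200 kept both.

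The replicate numbers did not pair the lines: deviations of lines with the same number correlated at -0.48 to 0.18 (22 pairs, 4 over 0.1). With the replicate block 39 and 29 genes were called between the strains (backgrounds 46% and 32.6%), and 0 in each allele comparison, where 137 of all genes were called in FVB and 3 in B6GFP. Some lines of different genotype share the leading part of their line number, which the labels do not explain: FVB_WT replicate 1 with FVB_MD43 replicate 4, B6GFP_WT replicates 1 and 2 with B6GFP_MD43 replicate 4, and B6GFP_WT replicate 3 with B6GFP_MD43 replicate 3. Deviations in these 4 pairs correlated at 0.13 to 0.47. With that number as a correlated block, an alternative chosen after seeing the data, 28 and 27 genes were called between the strains (backgrounds 40% and 34.5%) and 0 in each allele comparison. Batch 2 libraries were the shallowest, and absolute depth is unknown, so low levels such as those of Cox6a2 and Ndufa4l2 carry an unknown counting error.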
